A study of Mus musculus with 137 samples.

Results

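Messenger RNA levels were compared between the lungs of old and young mice that had all been given bleomycin, which damages the alveoli and is followed by scarring. The values are levels after bleomycin and not changes from saline. All 59 bleomycin lungs of the series entered the comparison, beside 69 saline and 9 untreated lungs of the series, and were chosen by their labels alone, with no measured value used. The mice were male C57BL/6J, young at 8 to 12 weeks or old at 21 months, and received the drug or saline into the trachea. Lungs were taken 14, 21, 28, 35, 42 or 56 days later. The young bleomycin groups held 5, 4, 5, 4, 5 and 4 lungs in that order of days (27 in all), and the old bleomycin groups held 6, 6, 5, 4, 5 and 6 (32 in all). The 29 young and 40 old saline lungs of the same days, and the 4 young and 5 old untreated lungs of day 0, served to show which age differences were there without the drug. Young mice received 0.7 mg/kg and old mice 0.63 mg/kg of bleomycin, and all young lungs carry lower library numbers than the old lungs, so age, dose and library order cannot be told apart.

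An injured lung is repaired by fibroblasts that lay down collagen, by macrophages that clear debris and remodel this matrix, and by alveolar type 2 cells that renew the gas-exchange surface. Lymphocytes enter the tissue and part of them remain as resident memory cells. With age, T cells that carry granzymes and exhaustion receptors, and B cells and plasma cells, are known to gather in many tissues. Interferon-gamma from such T cells raises the genes that present antigen.

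Libraries held 14908959 to 31019168 assigned reads, with a median of 21084349. Markers of fibroblasts, alveolar type 1 and type 2 cells, club cells, ciliated cells, endothelium and macrophages were present in all 59 bleomycin lungs, so the tissue read as lung. The summed thymus markers Rag1 and Ptcra were at 0 in 12 of 27 young and 19 of 32 old lungs, and the liver markers Alb and Apoa1 summed to at most 3.23 CPM (counts scaled to library size). The blood markers Hbb-bs and Hba-a1 summed to a median of 57.5 CPM in young and 41 CPM in old lungs, but reached 9211 CPM in replicate 3 of the old day 14 group. Another 5 lungs stood apart from their groups: young bleomycin day 28 replicate 3, old bleomycin day 14 replicate 6, old bleomycin day 35 replicate 3, old saline day 28 replicate 5 and old saline day 42 replicate 6. Counts over all genes are given with and without these 5 lungs, and lists and named genes without them where a list's count moved by more than 1.5 times or a named gene's call changed. The 5 were listed by name and not by a stated criterion, so leaving them out is not a check blind to the data. Other bleomycin lungs that stood apart on single list scores were kept in the fits without the 5. Among untreated lungs, young replicate 3 stood apart, with an Mmp12 level of 349 CPM where the other 3 young lungs had 5.55 to 6.55 CPM. In whole lung, fewer cells of a type and less RNA per cell cannot be told apart.

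A large share of the transcriptome passed the test for a difference between old and young bleomycin lungs. The age difference of a gene is its log2 fold change of old over young within a day, averaged over the 6 days with equal weight. Here ± is the standard error (SE) and a gene is called at an adjusted p under 0.05 (edgeR quasi-likelihood test, Benjamini-Hochberg adjustment, 18396 genes). Of these, 8743 genes were called, which is 47.5% of the genes tested. Old lungs were higher for 4883 genes (26.5%) and lower for 3860 (21.0%). Most differences were small: the median absolute size among the called genes was 0.21, and 1264 genes were higher and 266 lower by more than 0.5. By more than 1, which is a factor of 2, 315 genes were higher and 41 lower. Without the 5 lungs that stood apart, 9065 genes were called. Each p-value rests on the spread between single lungs, since every library is 1 lung. That spread was estimated once per gene over all 26 groups, so saline and untreated lungs also set it for the bleomycin comparison. For activated fibroblast genes, mean log2 CPM ran from 3.475 to 4.103 in young saline lungs and 3.948 to 6.352 in young bleomycin lungs.

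Most of these age differences were also found in lungs that had only received saline. The saline comparison called 10500 genes (57.1%), and no library is shared between it and the bleomycin comparison. Of the 8743 genes called after bleomycin, 7068 (80.8%) were called in the same direction after saline, 22 in the opposite direction, and 1653 (18.9%) were not called after saline. A missing call is no difference, so the bleomycin and saline age differences were tested against each other. That test called 461 genes (2.51%), of which 226 had the higher and 235 the lower value after bleomycin, and 277 without the young saline lungs numbered 1. Only 55 of the 1653 genes without a saline call were among the 461. Across the 18396 genes the bleomycin and saline age differences had a Pearson r of 0.808 and a Spearman rho of 0.809, as a description, since genes of the same libraries are not independent. In untreated lungs, with 4 young and 5 old mice, 1021 genes (5.55%) were called, 3.99% higher and 1.56% lower in old lungs. Without young replicate 4 it was 1.77%, and 3.16% without old replicate 4.

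**Figure D1:**
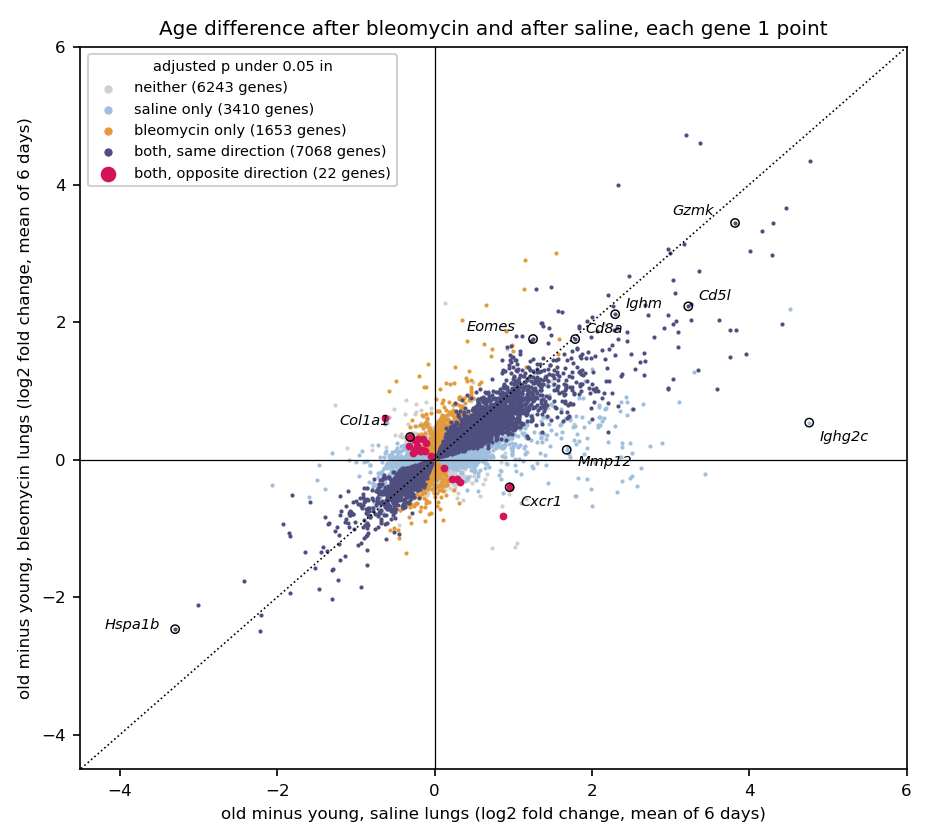
Each point is 1 of 18396 genes, with its old-minus-young log2 fold change in saline lungs on the x axis and in bleomycin lungs on the y axis, both as the mean over 6 days, coloured by which comparison called it at an adjusted p under 0.05. Most called genes lie near the dotted line of equal age differences, the immunoglobulin gene Ighg2c lies far below it, and 22 genes were called in opposite directions.

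Genes of T cells and of aged T cells had the highest medians of all gene lists compared between old and young bleomycin lungs. Old lungs were higher for 17 of 18 T cell genes and lower for none, with a median of 1.01, where the median over all genes tested was 0.03. The same was seen after saline, with 17 of 18 higher and a median of 1.23, and in untreated lungs, with 13 of 18 higher and a median of 1.74. The untreated count rested on 1 lung and was 1 of 18, with a median of 0.85, without old untreated replicate 2. The test between the bleomycin and the saline age difference called none of the 18 genes. Without the 5 lungs that stood apart, 17 of these genes were higher, with a median of 1.01. The gene that was not called was Foxp3 (-0.18 ± 0.15), the factor that defines regulatory T cells.

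Genes of CD8 T cells and of cytotoxic granules led this group. Eomes (ENSMUSG00000032446, chr9:118478212-118486132, GRCm38), a factor that drives effector and exhausted CD8 T cells, ran from 0.426 to 2.17 (median 1.39) CPM in the 27 young and from 1.91 to 11.8 (median 3.72) CPM in the 32 old bleomycin lungs. 29 of 32 old lungs lay above the highest young lung, and on 5 of 6 days every old lung lay above every young lung of that day. Its age difference was 1.75 ± 0.22 (adjusted p = 1.2e-10) after bleomycin and 1.25 ± 0.20 after saline. Cd8a (ENSMUSG00000053977, chr6:71373427-71379173), a chain of the CD8 coreceptor, ran from 1.12 to 8.2 (median 3.49) CPM in young and from 5.19 to 28.2 (median 11.2) CPM in old lungs. The age difference of Cd8a was 1.75 ± 0.22 (adjusted p = 1.3e-10) after bleomycin, 1.79 ± 0.20 after saline and 2.87 ± 0.56 in untreated lungs (1.12 and not called without old untreated replicate 2). The partner chain Cd8b1 differed by 1.58 ± 0.24, while Cd4, the coreceptor of helper T cells, differed by 0.31 ± 0.13.

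Gzmk (ENSMUSG00000042385, chr13:113171608-113225908), the granzyme that marks a CD8 T cell population of aged tissues, was close to 0 in most young bleomycin lungs and above 0 in every old one. It ran from 0 to 1.3 (median 0.14) CPM in young and from 0.589 to 8.96 (median 2.2) CPM in old lungs, and 25 of 32 old lungs lay above the highest young lung. The age difference was 3.44 ± 0.37 (adjusted p = 2.2e-13) after bleomycin, 3.82 ± 0.36 after saline and 3.79 ± 0.94 in untreated lungs (1.93 and not called without old untreated replicate 5), and young counts near 0 make its size uncertain. All 12 genes of aged and exhausted T cells were called higher, with a median of 1.07, among them Tox at 1.12 ± 0.14 and the residency receptor Cxcr6 at 1.01 ± 0.11. Genes of naive T cells were higher for 4 of 10 (2 without day 14, 42 or 56), with a median of 0.12, where 26.5% of all genes were higher. Among them was Il7r, the receptor for interleukin 7, at 0.67 ± 0.16. After saline 4 naive genes were higher and 3 lower, with a median of 0.15, while all 12 aged T cell genes were higher, with a median of 1.22. In untreated lungs 4 naive and 5 aged T cell genes were higher, with medians of 0.83 and 1.09.

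Cytotoxic and natural killer cell genes were split. Of 12 measured, 6 were higher in old bleomycin lungs and none was lower, with a median of 0.39. Nkg7, a granule protein, ran from 1.51 to 6.33 (median 4.07) CPM in young and from 3.64 to 26.2 (median 8.19) CPM in old lungs, a difference of 1.47 ± 0.20 (adjusted p = 8.6e-10). The chemokine Ccl5, which attracts T cells and is stored in cytotoxic granules, ran from 4.79 to 13.5 (median 9.72) CPM in young and from 10.3 to 83.8 (median 22.7) CPM in old lungs, and 29 of 32 old lungs lay above all young lungs. The age difference of Ccl5 was 1.62 ± 0.22 (adjusted p = 1.7e-09) after bleomycin and 1.81 ± 0.21 after saline.

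**Figure D2:**
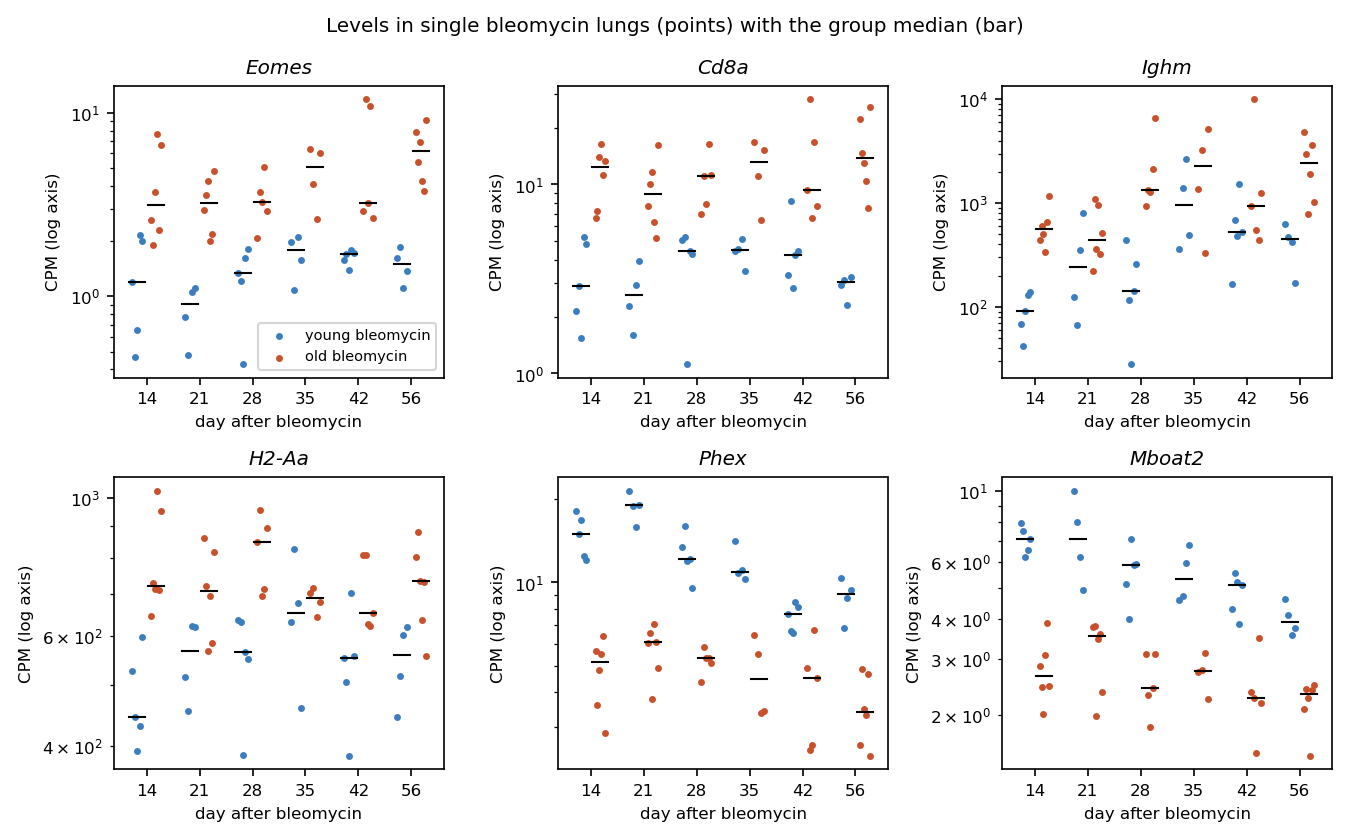
Levels of 6 genes in each bleomycin lung (points, CPM on a log axis) by day after bleomycin, with the young lungs to the left and the old lungs to the right of each day and a bar at the group median. Old lungs lie higher for Eomes, Cd8a, Ighm and H2-Aa and lower for Phex and Mboat2, with overlap on single days for all but Mboat2.

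Antigen presentation genes were higher as complete groups. Old bleomycin lungs were higher for all 13 class I genes of the major histocompatibility complex (MHC) and its peptide loading, with a median of 0.53, and for all 10 class II genes, with a median of 0.42. H2-Aa, a class II chain, ran from 385 to 828 (median 553) CPM in young and from 556 to 1027 (median 716) CPM in old lungs. All 32 old lungs lay above the young median, but only 7 lay above the highest young lung, and its age difference was 0.42 ± 0.06 (adjusted p = 7.4e-09). H2-Eb1, another class II chain, differed by 0.55 ± 0.07, and the class I heavy chain H2-K1 by 0.53 ± 0.06. The inducible proteasome subunits Psmb8 and Psmb9, which cut peptides for class I, differed by 0.56 ± 0.08 and 0.59 ± 0.09. Ciita, the coactivator that switches on class II genes, differed by 0.26 ± 0.10, and Nlrc5, its counterpart for class I, by 0.57 ± 0.12. Class I copies such as H2-Q6 and H2-Q7 are near-identical, so their reads may be shared between them.

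These differences were present after saline and absent as calls in untreated lungs. After saline the median was 0.55 for class I and 0.67 for class II, with all members called in both groups. In untreated lungs no member of either group was called, and the medians were 0.09 and 0.02. The test between bleomycin and saline age differences called 1 class II gene, H2-DMb1 (0.40 ± 0.05 after bleomycin, 0.68 ± 0.05 after saline), and no class I gene. Whether the saline and untreated age differences differ was not tested. Of the class II genes, 10 were higher, with a median of 0.39, without the 5 lungs that stood apart.

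Class II genes share a promoter module that the factors RFX and NF-Y bind and that recruits Ciita. The promoters of 4 class II genes are shown because all members moved in the same direction. They are the last 150 bases before the start site in RefSeq (GRCm38.p6), printed 5′ to 3′ along the gene, at chr17:34287824-34287973 (- strand), chr17:34305717-34305866 (+ strand), chr17:34153041-34153190 (+ strand) and chr17:34092229-34092378 (+ strand). Capitals mark the Y box core GATTGG or its reverse complement CCAATC, the motif that NF-Y reads.
H2-Aa: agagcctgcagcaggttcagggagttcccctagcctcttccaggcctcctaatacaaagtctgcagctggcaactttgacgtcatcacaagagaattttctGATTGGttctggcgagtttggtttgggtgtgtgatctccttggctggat
H2-Eb1: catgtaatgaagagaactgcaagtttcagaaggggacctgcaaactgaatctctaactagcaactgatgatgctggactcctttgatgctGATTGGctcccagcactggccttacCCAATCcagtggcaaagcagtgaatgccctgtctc
H2-DMb1: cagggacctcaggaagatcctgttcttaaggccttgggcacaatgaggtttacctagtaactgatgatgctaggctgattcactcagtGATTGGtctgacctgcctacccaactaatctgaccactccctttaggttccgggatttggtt
H2-Oa: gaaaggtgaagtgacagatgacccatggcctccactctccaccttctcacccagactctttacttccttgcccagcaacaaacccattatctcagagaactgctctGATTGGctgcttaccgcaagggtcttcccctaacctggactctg
Searched on both strands of the 250 bases before the start, the core was found in 7 of the 7 class II genes with a RefSeq entry, of 10 in the group, and in 14.6% of all 32851 promoter windows of that length. A match describes the letters in the window and does not show that a factor was bound.

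Interferon-gamma targets and complement followed the same direction. Of 12 interferon-gamma targets, 10 were higher in old bleomycin lungs and none was lower, with a median of 0.41. The count was 6 without day 28 and 5 without day 56. After saline 11 were higher, with a median of 0.48, and 8 without the 5 lungs that stood apart, with a median of 0.27. Cxcl9, a chemokine that interferon-gamma induces and that draws in T cells, ran from 0.826 to 12.3 (median 2.09) CPM in young and from 1.21 to 49.1 (median 6.59) CPM in old lungs. All but 1 of the 32 old lungs lay above the young median, and the age difference was 1.75 ± 0.28 (adjusted p = 1.0e-07). Its value was 2.34 ± 0.31 after saline, 2.25 without those 5 lungs, and -0.20 ± 0.77 in untreated lungs. Of 20 genes of the broader interferon response, 10 were higher and none was lower, with a median of 0.18, and 6 were higher without day 56 and 1 lower without the 5 lungs that stood apart. Isg15, a classic type I interferon gene, was not called (0.19 ± 0.11, adjusted p = 0.126). Complement genes were higher for 13 of 14 members after bleomycin, with a median of 0.37, and for 12 after saline, with a median of 0.296. After bleomycin C3, the central component, differed by 0.38 ± 0.06 and C4b of the classical pathway by 0.35 ± 0.06. Zbp1, an interferon-induced sensor of nucleic acids, differed by 0.69 ± 0.14 (adjusted p = 3.6e-05).

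B cell and antibody genes were higher in old bleomycin lungs, with wide scatter. Of 12 B cell genes, 10 were higher and none was lower, with a median of 0.64 after bleomycin and 0.70 after saline. Ighm (ENSMUSG00000076617, chr12:113418558-113422730), the heavy chain of IgM, ran from 28.1 to 2645 (median 355) CPM in young and from 222 to 9998 (median 994) CPM in old lungs, with a difference of 2.11 ± 0.27 (adjusted p = 2.7e-10). The chemokine Cxcl13, which gathers B cells into follicles, ran from 4.72 to 22.9 (median 8.67) CPM in young and from 5.7 to 34.4 (median 14.9) CPM in old lungs (0.76 ± 0.17, adjusted p = 7.4e-05). For Ighm, old and young lungs overlapped over their ranges, but on 3 of 6 days all old lungs lay above all young ones. The Ighm value was 2.30 ± 0.26 after saline and -0.01 ± 0.65 in untreated lungs.

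Class-switched antibody genes had smaller age differences after bleomycin than after saline, and young bleomycin lungs also carried high levels. Ighg2c, the heavy chain of an IgG subclass, ran from 0.0857 to 8.89 (median 0.784) CPM in young and from 1.4 to 296 (median 21.7) CPM in old saline lungs, an age difference of 4.76 ± 0.51. After bleomycin it ran from 0.525 to 1319 (median 25.1) CPM in young and from 3.46 to 421 (median 45.1) CPM in old lungs, an age difference of 0.54 ± 0.39 (adjusted p = 0.251). The bleomycin value was lower than the saline value by 4.22 (log2 change in the age difference -4.22 ± 0.64, adjusted p = 2.7e-06). Without 1 lung, young bleomycin day 21 replicate 4, the bleomycin age difference was called at 1.23 (adjusted p = 0.0050, edgeR). Ighg2b, Ighg3 and Ighg1 had the same order, with age differences of 1.02 ± 0.32, -0.39 ± 0.37 and 0.24 ± 0.41 after bleomycin and 3.59 ± 0.37, 2.57 ± 0.43 and 2.89 ± 0.48 after saline. Of the bleomycin values only that of Ighg2b was called, and not without day 28 (0.60) or without 11 libraries whose numbers lie apart from their group (0.72). Over the alternatives run, the bleomycin value of Ighg1 ran from -0.08 to 0.67 and that of Ighg3 from -0.71 to 0.02.

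The test between treatments called 6 of 16 plasma cell genes, all with the smaller age difference after bleomycin. Jchain, which joins IgM and IgA into polymers, ran from 23.4 to 522 (median 132.3) CPM in young and from 47.4 to 828 (median 239) CPM in old bleomycin lungs, with medians of 19.2 and 107.3 CPM after saline. Jchain differed between the ages by 0.78 ± 0.23 after bleomycin (not called without day 14, 0.58) and 2.33 ± 0.24 after saline, and the difference between them was -1.54 ± 0.33 (adjusted p = 0.00215). The light chain gene Igkc differed by 1.25 ± 0.23 after bleomycin and 2.38 ± 0.23 after saline, and by -1.13 ± 0.31 (adjusted p = 0.0272) between them. The last call was lost without young day 21 replicate 4 (-0.89) and without the young saline lungs numbered 2, 4 or 5. Over the group, 9 genes were higher and 1 was lower after bleomycin, with a median of 0.63, against 1.82 after saline and -0.02 in untreated lungs (1.04 without young untreated replicate 3). The gene that was lower was Xbp1 (-0.18 ± 0.04), a secretory factor that is also made in other lung cells. Antibody constant regions are similar in sequence, so their reads may be shared.

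**Figure D3:**
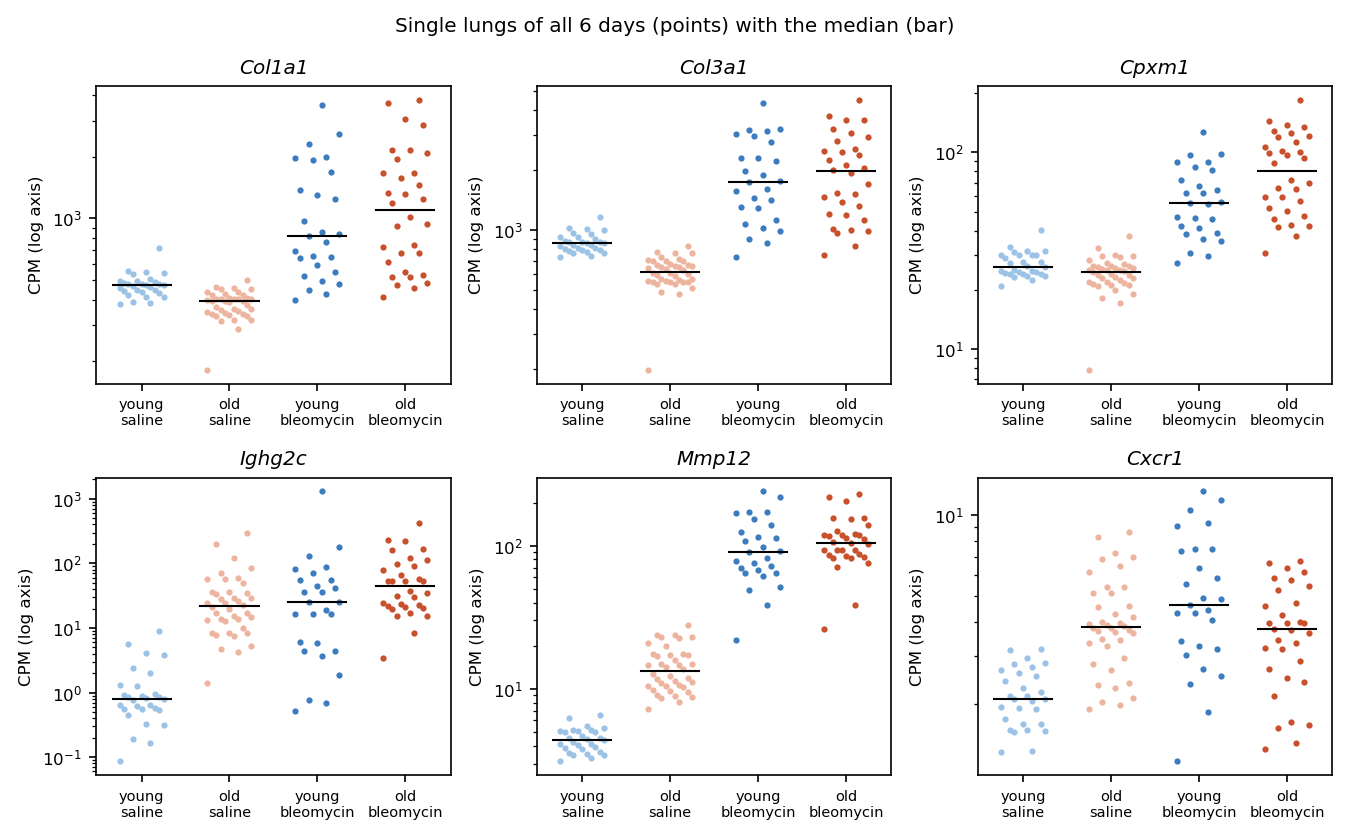
Levels of 6 genes in every saline and bleomycin lung of all 6 days (points, CPM on a log axis) by age and treatment, with a bar at the median. The old median lies below the young one for Col1a1 and Col3a1 after saline and above it after bleomycin, and for Mmp12 the ages are apart after saline and overlap after bleomycin.

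Macrophage genes of scar tissue were higher in old lungs after bleomycin and after saline. Of 16 genes of monocyte-derived and scar macrophages, 13 were higher and 1 (Cd9, -0.13 ± 0.04) was lower after bleomycin, with a median of 0.41. After saline 12 were higher and 1 was lower, with a median of 0.505. The test between treatments called 3 of the 16, all with the lower value after bleomycin. C1qa and C1qc, which encode the recognition part of complement and are made by tissue macrophages, differed by 0.61 ± 0.09 and 0.58 ± 0.09. Trem2, a lipid receptor of these cells, ran from 13.2 to 79.4 (median 45.2) CPM in young and from 17.2 to 129.6 (median 59.8) CPM in old lungs, with a difference of 0.38 ± 0.10 (adjusted p = 8.8e-04). After saline the Trem2 difference was larger, 0.95 ± 0.11, and the test between the treatments gave -0.57 ± 0.15 (adjusted p = 0.0144). Spp1, osteopontin, ran from 269 to 3251 (median 1304) CPM in young and from 213 to 3429 (median 2056) CPM in old lungs, a difference of 0.44 ± 0.15 (adjusted p = 0.00898), which was not called without day 35 (0.35) or without day 42 (0.29). Of 13 alveolar macrophage genes, 1 was higher (Marco, 0.68 ± 0.18) and 1 lower (Siglecf, -0.18 ± 0.06), with a median of -0.03. Marco was not called without day 35 (0.39) and Siglecf not without day 14, 28 or 42 (-0.15, -0.14 and -0.15), while without the 5 lungs that stood apart 4 members were lower.

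The macrophage elastase Mmp12 was not called after bleomycin, where the levels of both ages overlapped. It ran from 22 to 241 (median 90.1) CPM in young and from 25.9 to 229 CPM in old bleomycin lungs, 22 of 32 of them above the young median, and the age difference was 0.14 ± 0.18 (adjusted p = 0.527). After saline it was from 3.1 to 6.53 (median 4.39) CPM in young and from 7.23 to 28 (median 13.3) CPM in old lungs, with no overlap between the ages, an age difference of 1.68 ± 0.20 (adjusted p = 7.6e-12). In untreated lungs the value of -3.37 ± 0.50 rested on young replicate 3, and without it the value was 0.53 (adjusted p = 0.491, edgeR). The change in the age difference from saline to bleomycin was -1.54 ± 0.27 (adjusted p = 1.3e-04). Cd5l, an apoptosis inhibitor of macrophages, had the largest rise by the naming rule, at 2.23 ± 0.39 (adjusted p = 9.2e-07). It ran from 0.167 to 6.55 (median 1.24) CPM in young and from 0.718 to 39.6 (median 5.47) CPM in old lungs, with 13 of 32 old lungs above the highest young lung. Arg1, arginase of repair macrophages, ran from 1.26 to 49 (median 3.1) CPM in young and from 1.24 to 54.1 (median 11.5) CPM in old lungs, and its difference of 0.87 ± 0.27 (adjusted p = 0.00585) was not called without day 42 (0.60).

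Other myeloid cells gave mixed values. Of 10 neutrophil genes, 8 were higher in old bleomycin lungs and none was lower, with a median of 0.72. After saline all 10 were higher, with a median of 1.03 (8 and 0.83 without the 5 lungs that stood apart). After bleomycin the alarmin S100a9 and the granulocyte gene Retnlg differed by 0.98 ± 0.20 and 1.02 ± 0.17. Cxcr1, a chemokine receptor of neutrophils, went the other way and was among the 22 genes with opposite age differences. It ran from 1.23 to 12.2 (median 4.64) CPM in young and from 1.36 to 6.74 (median 3.77) CPM in old bleomycin lungs, a difference of -0.40 ± 0.13 (adjusted p = 0.00713), and of 0.95 ± 0.13 after saline. The bleomycin value was not called without day 42 or without day 56, at -0.30 and -0.31, while the test between treatments gave -1.36 ± 0.18 (adjusted p = 1.0e-07). Ccr2, the receptor that brings monocytes into tissue, differed by 0.37 ± 0.09 after bleomycin and 0.98 ± 0.08 after saline (difference between them -0.61 ± 0.12, adjusted p = 4.9e-04). Of 12 dendritic cell genes 6 were higher and 2 lower, with a median of 0.21, and 3 were higher without day 14 or without day 56. Cd209a, a lectin of monocyte-derived dendritic cells, was one of those lower in old bleomycin lungs, from 4.23 to 13.4 (median 7.4) CPM against 5.87 to 19.9 (median 13.6) CPM in young. Its age difference was -0.78 ± 0.10 (adjusted p = 2.7e-10) after bleomycin and -0.07 ± 0.09 after saline, and these differed by -0.72 ± 0.14 (adjusted p = 5.6e-04).

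Several interstitial collagen genes had another age difference after bleomycin than after saline. Of 25 interstitial matrix genes, 7 were higher and 1 was lower in old bleomycin lungs, with a median of 0.17. That share of higher members is close to the 26.5% of all genes tested that were higher, and it fell to 1 of 25 when only the bleomycin groups were fitted. After saline 1 was higher (2 without the 5 lungs that stood apart) and 12 were lower, with a median of -0.20. The test between the treatments called 6 of the 25, all with the higher value after bleomycin. Without the 5 lungs that stood apart it called 6, and 8 members were higher after bleomycin. Without old bleomycin day 35 replicate 3 alone, it called 3.

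Col1a1 (ENSMUSG00000001506, chr11:94936224-94953042), the main chain of type I collagen, ran from 397 to 3578 (median 821) CPM in young and from 412 to 3806 (median 1102) CPM in old bleomycin lungs. The ranges overlapped, 19 of 32 old lungs lay above the young median, and the age difference was 0.33 ± 0.13 (adjusted p = 0.0259). After saline Col1a1 ran from 382 to 712 (median 471) CPM in young and from 181 to 499.8 (median 395) CPM in old lungs, a difference of -0.31 ± 0.12 (adjusted p = 0.0194). The test between the treatments gave 0.64 ± 0.17 (adjusted p = 0.0241). The bleomycin call did not hold without any 1 of 5 lungs: young day 35 replicate 4 (0.30), old day 14 replicate 5 (0.26), old day 35 replicate 3 (0.20), or old day 42 replicate 1 (0.29) or 5 (0.29). Nor did it hold without day 28 (0.29), day 35 (0.29) or day 42 (0.25), or, at values of 0.30 to 0.32, in an additive model of age and day, with no filter on low counts or with only the bleomycin groups fitted. The test between treatments lost its call with no filter on low counts, without old day 35 replicate 3 (0.52), without the young saline lungs numbered 1, 2 or 4 and without the old saline lungs numbered 5. The saline call was lost without the young saline lungs numbered 2 and without the old saline lungs numbered 5.

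Col3a1, the chain of type III collagen, gave the same order, with no call after bleomycin. It ran from 733 to 4331 (median 1754) CPM in young and from 753 to 4534 (median 1977) CPM in old bleomycin lungs, and the age difference was 0.13 ± 0.10 (adjusted p = 0.264). After saline it was from 733 to 1168 (median 857) CPM in young and from 198 to 833 (median 618) CPM in old lungs, a difference of -0.49 ± 0.09 (adjusted p = 2.2e-06). The change between treatments was 0.62 ± 0.13 (adjusted p = 0.00262) and kept its call under all alternatives run. Cpxm1, a carboxypeptidase-like protein of the matrix, differed by 0.51 ± 0.08 (adjusted p = 4.3e-07) after bleomycin and -0.16 ± 0.08 after saline, and 0.66 ± 0.12 (adjusted p = 1.5e-04) between them. Mfap4, a microfibril protein bound to elastin, differed by 0.42 ± 0.06 after bleomycin and 0.07 ± 0.06 after saline. Elastin was not called after bleomycin: Eln ran from 616 to 5476 (median 1812) CPM in young and from 422 to 4532 (median 1865) CPM in old lungs (0.00 ± 0.12, adjusted p = 0.9964).

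Of 12 genes of activated fibroblasts, 6 were higher and 1 was lower in old bleomycin lungs, and 1 was higher when only the bleomycin groups were fitted or in an additive model of age and day. After saline none was higher and 2 were lower, with a median of 0.02. Over all lungs the test between treatments called none of the 12. Grem1, an inhibitor of bone morphogenetic proteins that scar fibroblasts secrete, ran from 1.29 to 55.4 (median 6.69) CPM in young and from 1.3 to 108.2 (median 20.4) CPM in old bleomycin lungs. Its age difference was 1.05 ± 0.23 (adjusted p = 8.9e-05) after bleomycin and -0.11 ± 0.33 after saline, but the test between them did not pass (1.16 ± 0.41, adjusted p = 0.11). It passed without young day 28 replicate 3 (1.37) or young day 35 replicate 3 (1.36). Tnc, tenascin C, differed by 0.49 ± 0.17 (adjusted p = 0.0124) after bleomycin and was not called without old day 35 replicate 3 (0.30), without day 28 (0.42) or without day 42 (0.36). Tnc, Cthrc1 and Spp1 also lost their calls in the additive model and with only the bleomycin groups fitted. Acta2, smooth muscle actin, differed by 0.34 ± 0.08 (adjusted p = 1.9e-04), and Cthrc1, a marker of collagen-making fibroblasts, by 0.36 ± 0.12 (adjusted p = 0.00921), which was not called without day 28. Postn, periostin, was lower in old lungs, from 269 to 412 CPM against 388 to 538 CPM in young, a difference of -0.38 ± 0.04 (adjusted p = 7.0e-13) after bleomycin and -0.53 ± 0.04 after saline. Of 19 genes that process or cross-link collagen, 5 were higher and 5 lower, with a median of 0.06. Both counts are near the shares of all genes tested, 26.5% higher and 21.0% lower. Loxl4, a lysyl oxidase that joins collagen chains, was higher at 0.33 ± 0.09, while P4ha1, a prolyl hydroxylase, and Serpinh1, a collagen chaperone, were lower, at -0.60 ± 0.07 and -0.39 ± 0.06, and were lower after saline at -0.73 ± 0.06 and -0.55 ± 0.06. Basement membrane genes numbered 2 higher and 6 lower of 20, beside 26.5% and 21.0% of all genes, and 11 were lower without day 42. After saline 14 were lower. The test between treatments called 3, all higher after bleomycin, and 1 without the young saline lungs numbered 4.

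**Figure D4:**
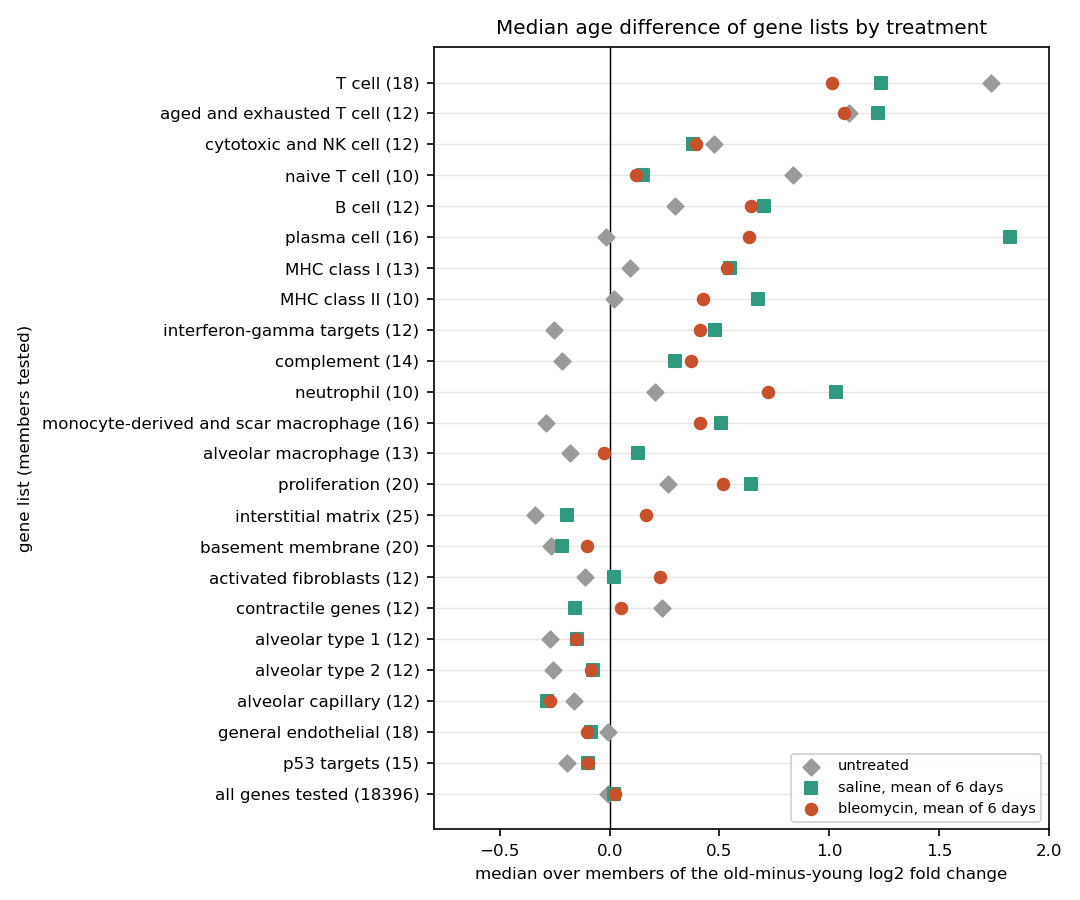
Median old-minus-young log2 fold change over the members of each gene list (x axis), with the number of members tested beside its name, in bleomycin lungs (circles), saline lungs (squares) and untreated lungs (diamonds). Bleomycin and saline medians have the same sign for most lists shown, and for interstitial matrix they are 0.17 and -0.20.

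Alveolar and capillary genes were lower in old lungs by small amounts after both treatments. Of 12 genes of alveolar capillaries, 8 were lower and 2 higher, with a median of -0.27 after bleomycin and -0.29 after saline. Fibin and Ednrb, an endothelin receptor of these capillaries, differed by -0.83 ± 0.09 and -0.69 ± 0.10. The carbonic anhydrase Car4 of the same cells ran from 71.4 to 138.6 (median 100.8) CPM in young and from 59.4 to 177 (median 94.1) CPM in old lungs (-0.12 ± 0.06, adjusted p = 0.0717). This value lies near the threshold: Car4 was called lower without the 5 lungs that stood apart (-0.18), without day 14 or day 21, and without any 1 of 15 single lungs. Of 18 general endothelial genes 9 were lower and none was higher, with a median of -0.10, and 5 were lower without day 28. Kdr, a receptor for vascular endothelial growth factor, ran from 272 to 569.6 (median 371) CPM in young and from 216 to 495 (median 341) CPM in old lungs, a difference of -0.21 ± 0.06 (adjusted p = 0.00214), which was -0.14 and not called without day 28. Vwf, a marker of larger vessels, was higher in old lungs by 0.47 ± 0.07.

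Among epithelial genes, 7 of 12 type 1 genes were lower and 1 was higher (Igfbp2, 0.46 ± 0.10), with a median of -0.15 after bleomycin and -0.15 after saline. Rtkn2 had the largest difference of them, -0.54 ± 0.06 after bleomycin and -0.55 ± 0.06 after saline. Of 12 type 2 genes, 4 were lower, where 21.0% of all genes were, and none was higher, with a median of -0.08. Without the 5 lungs that stood apart 8 of them were lower, with a median of -0.12. Sftpc, which encodes a surfactant protein, ran from 7767 to 20700 (median 17010) CPM in young and from 6953 to 36340 (median 15060) CPM in old lungs (-0.09 ± 0.08, adjusted p = 0.382). It was not called over all lungs but was called lower without those 5, at -0.17 (adjusted p = 0.0307, edgeR). The transitional state between type 2 and type 1 cells had 6 of 16 genes higher (2 without day 28) and 1 lower after bleomycin. The shares of all genes were 26.5% and 21.0%, and the list median was 0.106. After saline 5 of the 16 were higher and 2 lower. After bleomycin Krt8, a keratin of that state, was at 0.02 ± 0.06 (adjusted p = 0.792). The club cell gene Scgb1a1 was at 0.03 ± 0.09 (adjusted p = 0.842), and neither of these 2 genes was called. Of 12 genes of airway secretion and defence, 3 were higher and 4 lower, and 1 was lower without day 21 or without day 42. Of all genes tested, 26.5% were higher and 21.0% lower. The immunoglobulin transporter Pigr and the siderophore-binding Lcn2 were higher at 0.48 ± 0.11 and 0.41 ± 0.12. The basal keratin Krt15, Bpifb1 and the antimicrobial lectin Reg3g were lower at -1.36 ± 0.45, -1.24 ± 0.33 and -1.02 ± 0.36. Without young day 21 replicate 4 the values of Krt15 and Reg3g were -0.78 and -0.71 and no longer called, and Krt15 also lost its call without young day 28 replicate 4 (-1.05).

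Among genes lower in old bleomycin lungs, Phex and Mboat2 had little overlap between the ages. Of all genes tested, 0.0217% were lower without overlap on each of the 6 days, Mboat2 but not Phex among them. Phex (ENSMUSG00000057457, chrX:157162075-157415312), a peptidase that controls phosphate handling, ran from 6.55 to 21.5 (median 12) CPM in young and from 2.35 to 7.05 (median 4.87) CPM in old lungs, with 29 of 32 old lungs below the lowest young lung. Its age difference was -1.35 ± 0.08 (adjusted p = 1.2e-27) after bleomycin, -1.64 ± 0.09 after saline and -1.78 ± 0.23 in untreated lungs. Mboat2, a phospholipid acyltransferase, ran from 3.56 to 10.03 (median 5.56) CPM in young and from 1.49 to 3.87 (median 2.44) CPM in old lungs, a difference of -1.10 ± 0.08. Slc5a12, a lactate carrier, and Prdm8 differed by -1.53 ± 0.22 and -1.11 ± 0.12. Veph1 was lower by a smaller amount after bleomycin (-1.07 ± 0.11) than after saline (-1.85 ± 0.12), and the test between them gave 0.78 ± 0.16 (adjusted p = 0.00206).

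Heat shock genes had the largest falls by the naming rule. The inducible chaperones Hspa1b and Hspa1a ran from 7.42 to 249.6 (median 31.9) and from 6.47 to 144.6 (median 19.4) CPM in young bleomycin lungs. In old lungs they ran from 3.38 to 35.3 (median 7.27) and from 2.61 to 11.2 (median 5.72) CPM. No old lung reached the young median for Hspa1a, and 22 of 32 lay below the lowest young lung. The age differences were -2.47 ± 0.28 (adjusted p = 2.9e-12) and -2.11 ± 0.23 (adjusted p = 4.4e-13), and -3.30 ± 0.27 and -3.01 ± 0.22 after saline. These genes are near-identical copies, so reads may be split between them in either way. Hsph1, a co-chaperone with a sequence of its own, ran from 48.8 to 389.5 (median 126.3) CPM in young and from 25.3 to 167 (median 49) CPM in old lungs, a difference of -1.35 ± 0.15 (adjusted p = 7.3e-13). Hspa8 and Dnaja1, chosen after their values were seen, differed by -0.73 ± 0.08 and -0.76 ± 0.09. Of 13 genes that respond to tissue handling, 3 were higher and 2 lower, Hspa1a among the latter, beside 26.5% and 21.0% of all genes tested. Junb differed by 0.44 ± 0.09 and Jun by -0.25 ± 0.04, and the part of such handling in the heat shock values was not tested.

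Heat shock factor 1 switches these genes on through paired GAA repeats. The last 150 bases before the start of both inducible genes are shown to make clear how alike the copies are (RefSeq, GRCm38.p6, 5′ to 3′ along the gene, at chr17:34972157-34972306 (- strand) and chr17:34959239-34959388 (- strand)). Capitals mark the element GAANNTTC, which is its own reverse complement.
Hspa1a: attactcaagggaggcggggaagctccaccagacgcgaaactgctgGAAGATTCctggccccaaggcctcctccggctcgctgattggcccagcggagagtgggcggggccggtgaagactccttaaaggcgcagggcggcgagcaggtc
Hspa1b: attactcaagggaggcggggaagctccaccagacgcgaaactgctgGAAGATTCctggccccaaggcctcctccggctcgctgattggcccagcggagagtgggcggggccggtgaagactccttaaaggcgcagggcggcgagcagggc
The windows differed at 1 of 150 positions. In the 250 bases before the start, the element was found in 3 of the 4 genes with an entry (Hspa1a, Hspa1b and Dnaja1, not Hsph1) and in 6.69% of all 32851 windows. A match is a description of the letters.

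Genes of the circadian clock were split between the ages. Dbp, a clock output factor, ran from 5.68 to 40.2 (median 14.7) CPM in young and from 20.8 to 123.9 (median 51.1) CPM in old bleomycin lungs, with 22 of 32 old lungs above the highest young lung. Its age difference was 1.61 ± 0.16 (adjusted p = 2.6e-14) after bleomycin and 1.81 ± 0.16 after saline, and 0.22 ± 0.43 in untreated lungs. The core activators Arntl and Clock were lower at -0.65 ± 0.06 and -0.28 ± 0.03, and the repressor Cry1 was lower at -0.65 ± 0.07. Over 12 clock genes 4 were higher and 6 lower after bleomycin. The labels used here give no hour of collection.

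Cell cycle genes were higher in old bleomycin lungs for 19 of 20 members, with a median of 0.52 after bleomycin and 0.64 after saline. Mki67, the classic marker of dividing cells, ran from 5.32 to 46.9 (median 12) CPM in young and from 9.94 to 56.9 (median 19.8) CPM in old lungs, a difference of 0.59 ± 0.17 (adjusted p = 0.00289). Birc5 and Ccnb2, both needed for mitosis, differed by 0.79 ± 0.16 and 0.65 ± 0.12. The senescence regulator Cdkn2a ran from 0.957 to 3.94 (median 1.89) CPM in young and from 0.983 to 6.41 (median 3.47) CPM in old lungs, with 29 of 32 old lungs above the young median, a difference of 0.74 ± 0.14 (adjusted p = 2.7e-06). Its value was 1.09 ± 0.15 after saline. Cdkn1a, which encodes p21 and is switched on by p53, was lower in old lungs, from 296 to 621 (median 441) CPM against 393 to 874 (median 524) CPM, a difference of -0.34 ± 0.06 (adjusted p = 2.0e-06) after bleomycin and -0.37 ± 0.06 after saline. Of 15 p53 targets, 7 were lower (4 without day 21) and none was higher after bleomycin, beside 21.0% and 26.5% of all genes tested. After saline 7 were lower and 1 was higher, and the median was -0.098 after both treatments. The targets Eda2r and Bbc3 differed by -0.38 ± 0.08 and -0.24 ± 0.05 after bleomycin.

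On each of the 6 days, 12 genes had all old bleomycin lungs on one side of all young lungs of that day, which is 0.0652% of the genes tested (0.0435% higher and 0.0217% lower in old lungs). They were picked out after their values were seen. Those lower in old lungs were Mboat2, Usp13, Zfp57 and Pkp4. Usp13, an enzyme that removes ubiquitin, ran from 7.86 to 15.7 (median 10.4) CPM in young and from 4.3 to 9.02 (median 7.17) CPM in old lungs, with an age difference of -0.64 ± 0.05 after bleomycin and -0.34 ± 0.05 after saline (-0.30 ± 0.07, adjusted p = 0.0121 between them). Zfp57, a zinc finger protein that guards imprinted loci, ran from 30.6 to 52.4 (median 41.8) CPM in young and from 22.5 to 34.4 (median 28.7) CPM in old lungs. Among the 8 higher genes were Thy1, an antigen of mouse T cells and fibroblasts, Sh2d2a, a T cell adaptor, and Tcrg-C2, a constant region of the gamma T cell receptor. Thy1 ran from 16.3 to 29 (median 21.6) CPM in young and from 27.9 to 70.5 (median 38.4) CPM in old lungs, a difference of 0.84 ± 0.12 (adjusted p = 1.3e-08). The other 5 were low, with young medians under 1 CPM: Dmrta1, C130026I21Rik, Serpina1d and the unplaced genes AC168977.1 and AC133103.1. Serpina1d is a member of a family of near-identical copies, so its reads are uncertain.

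The 22 genes called in opposite directions were few beside the 7068 called in the same direction. In 16 of them old lungs were higher after bleomycin and lower after saline, and matrix and mesenchymal genes were among these: Col1a1, the laminin chain Lamb1 (0.13 ± 0.05 and -0.19 ± 0.05), the collagen Col23a1 (0.30 ± 0.05 and -0.15 ± 0.04), the procollagen protease Adamts14 (0.30 ± 0.09 and -0.21 ± 0.08) and the mesenchymal factor Snai1 (0.19 ± 0.08 and -0.33 ± 0.08). These were named after their values were seen. For 21 of the 22 the test between the treatments was called, the exception being Abcf1 (adjusted p = 0.0561, edgeR). Genes picked for calls in opposite directions nearly always pass that test, so this count adds no support. The largest gains in the age difference from saline to bleomycin by the naming rule were in Fbn2, a fibrillin of developing tissue, and Grp, a peptide of airway neuroendocrine cells. Fbn2 differed by -0.29 ± 0.20 after bleomycin and -1.49 ± 0.20 after saline, and Grp by -0.03 ± 0.13 and -0.86 ± 0.13. Without old day 35 replicate 3 or without the 5 lungs that stood apart, the Fbn2 bleomycin value was called lower, at -0.55 and -0.42.

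On single days, with 4 to 6 lungs in a group, the number of genes called varied widely and rested on single lungs. It was 5051 (27.5%) on day 14, 0.701% on day 21 (68 higher and 61 lower), 3356 (18.2%) on day 28, 259 (1.41%) on day 35, 1165 (6.33%) on day 42 and 2240 (12.2%) on day 56. Without old day 14 replicate 6, day 14 had 1510 called genes. On day 21 the count was 49, 56 and 70 without young replicates 1, 2 and 4, and 198 and 78 without old replicates 3 and 6. Day 28 had 1994 without young replicate 4 and 2228 without young replicate 5. On day 35 it was 49 without young replicate 4, 25 without old replicate 1 and 729 without old replicate 4. For day 42 the counts were 493, 522, 1982 and 560 without young replicates 1, 3, 4 and 5, and 724 and 723 without old replicates 1 and 5. Day 56 had 1463 and 1287 without young replicates 2 and 3. A low count on a day therefore does not show that the ages were alike on it.

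The median of the T cell list was above 0 on every day, at 1.28, 0.81, 0.80, 0.53, 1.13 and 1.32 from day 14 to day 56. Of its 18 genes 15, 0, 6, 0, 4 and 12 were called higher on those days. The class II median was also above 0, from 0.10 on day 35 to 0.71 on day 14. The interstitial matrix median was -0.28 on day 14, with 3 of 25 members called lower and none higher. It was 0.25 on day 28, with 3 higher and 2 lower, and 0.51 on day 42, with 3 higher and 1 lower. Of all 18396 genes, 2332 were called lower on day 14, a share close to that of these members. Of 20 basement membrane genes, 14 were lower and none was higher on day 14, with a median of -0.46. At most 3 of them were lower on any other day, and 2 were higher on day 42. List counts by day were not run with lungs left out. On day 28, 1584 of all genes were higher and 1772 lower, and on day 42 670 and 495. No list was tested between days. Of the 8743 called genes, 5201 had the same sign on all 6 days. Whether the age difference changed between days was tested for each gene over the 6 days, and 37 genes (0.201%) were called. Clec2d, a ligand of a natural killer cell receptor, was at 0.55 on day 14 and -0.49 on day 42, and its receptor gene Klrb1b at 0.65 and -0.43. The splicing genes Srsf3 and Snrnp48 were at 0.44 and 0.21 on day 14, and at -0.07 and -0.40 on day 42. Single lungs moved the number of genes called by this test from 37 to between 8 and 540, and 20 of the 59 moved it by more than 1.5 times.

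**Figure D5:**
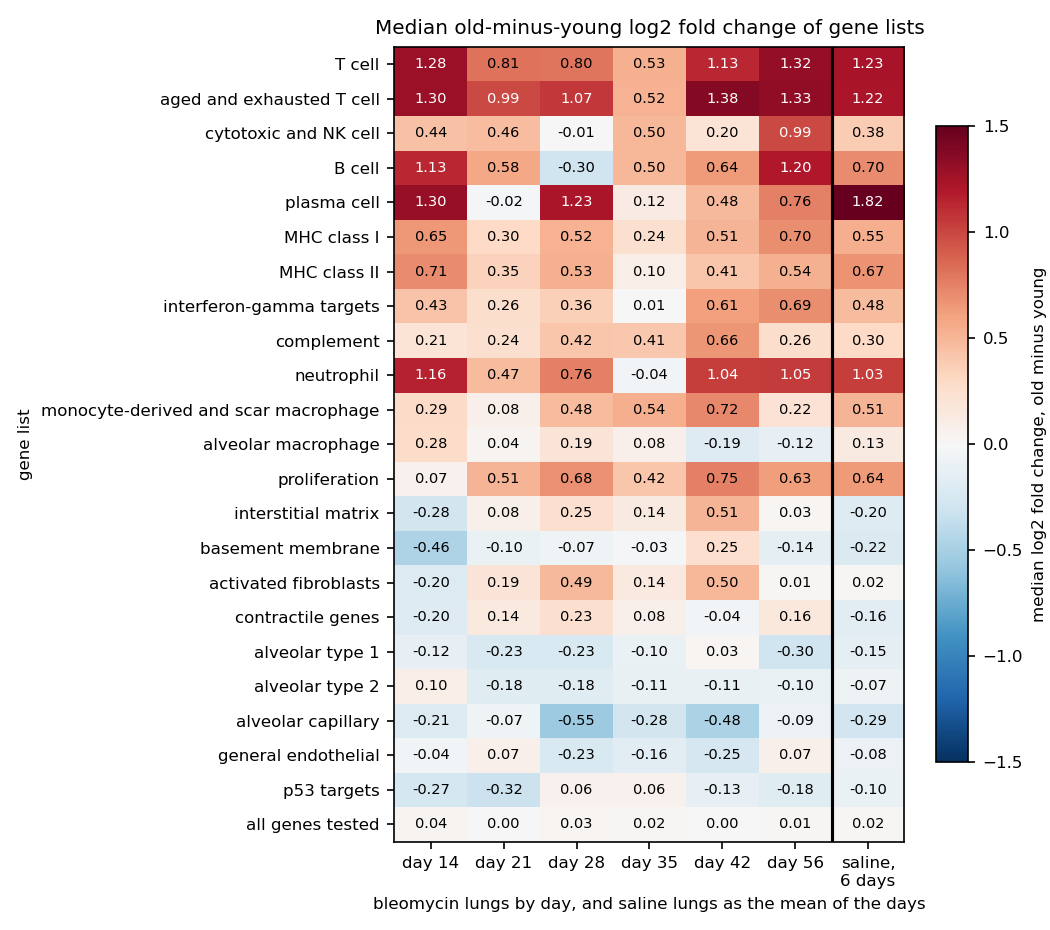
Median old-minus-young log2 fold change over the members of each gene list (rows) in bleomycin lungs by day (columns), with the saline lungs over the same days in the last column. Red is higher and blue lower in old lungs, the number in each cell is the median, and T cell, aged T cell and MHC lists are above 0 on all 6 days.

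Markers of other tissue were also compared. Of 8 blood genes 3 were higher in old bleomycin lungs, with a median of 0.73, and without the blood-rich old day 14 replicate 3 none was (0.09). The red cell gene Slc4a1 differed by 2.25 ± 0.77. Without old day 14 replicate 3 Slc4a1 was at 1.18 and not called, and it also lost its call without old day 42 replicate 2 (1.58). Without that blood-rich lung 8873 genes were called over all days. Skeletal muscle genes were higher for 4 of 8, and for 2 without day 14. The summed muscle markers Acta1 and Ckm ran from 0.358 to 10.6 CPM in young and from 1.13 to 34.6 CPM in old lungs. No cardiac muscle gene of 10 was called, with a median of 0.10, and 4 were higher without day 42. Adipose genes were higher for 1 and lower for 2 of 10, with medians of -0.475 after bleomycin and -0.451 after saline. On days 35 and 42 the adipose medians were -1.64 and -1.69, with 3 genes called lower on day 42. Of 8 cartilage genes 1 was lower and none was higher after bleomycin. For all these counts over the 6 days, 26.5% of all genes tested were higher and 21.0% lower. The part of these tissues in the results above was not tested.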

How the data were processed

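All libraries of the series hold whole-lung RNA, 1 lung each, and the authors' deposited table gives whole-number read counts per gene. The submitters' processing notes name FastQC 0.11.5, RSEM 1.3.0, STAR 2.5.2 and 2.5.2b, bcl2fastq 2.20.0.422 and featureCounts 1.5.1, without their roles. They list mouse and human builds, and which setting gave these counts, strand included, is not given in the sources used here, so reads of overlapping genes cannot be assigned with certainty. Gene symbols and positions are from the GENCODE M21 annotation of GRCm38.

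Genes passed edgeR's filterByExpr (minimum count 10, minimum total 15), which left 18396. Counts were scaled by TMM and fitted with edgeR 4.0.16 (R 4.3.3, limma 3.58.1) by the robust quasi-likelihood test over 26 groups of age, treatment and day, with 111 residual degrees of freedom. P-values were adjusted by Benjamini-Hochberg within each comparison. The SE of a log2 fold change is its size divided by the square root of F. Levels are CPM (counts scaled to the TMM-adjusted library size), and list scores use log2 CPM with a prior count of 2. The script recovered known changes on simulated data that had the same spread for all genes and groups and no treatment effect. That simulation could not show how a spread that differs between treatments affects the calls.

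The comparison and the gene lists were chosen with earlier results of these data known, so no list is independent support. Genes were named by a rule: a panel of 32 genes, then, of the genes called and above 1 in average log2 CPM, the 12 that rose most and the 12 that fell most, the 8 with the greatest change in each direction between treatments, the 8 smallest p-values of the test over days, and up to 4 members of each list with the smallest p. Predicted genes, pseudogenes and variable segments were skipped. Abcf1, Adamts14, Cd4, Cd9, Ciita, Col23a1, Dnaja1, Foxp3, Hspa8, Lamb1, Nlrc5, Psmb8, Psmb9, Snai1, Usp13, Xbp1 and Zfp57, and the other genes that never overlapped, lie outside the rule and were chosen after their values were seen. Alternatives were another scaling (RLE), no filter on low counts, DESeq2 1.42.0, the groups of a comparison alone, an additive model of age and day, single days or lungs left out, and sets of libraries left out. Leaving out the blood-rich lung and each untreated lung was chosen after seeing the data. The 5 lungs that stood apart were listed by name without a stated criterion, so that set was not blind to the data either. Results on some genes are not reported here.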

Additional observations from a re-analysis of the deposited data

Results flagged for a closer look

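The mean log2 CPM over a list was compared within each bleomycin group for 8 lists, and in 11 of 96 group and list pairs the highest or lowest lung stood apart by Dixon's criterion, which chance alone exceeds in about 1 of 20 groups. Young bleomycin day 28 replicate 3 stood apart in 5 of them. Its interstitial matrix score was 8.95 where the median of the others was 7.88, and its proliferation score was 2.54 against 1.12. Its T cell score was 0.55 against 1.82, its plasma cell score 3.41 against 4.83 and its MHC class II score 5.83 against 6.59. The plasma cell score of old day 14 replicate 6 was 5.35 against 4.65. The scar macrophage score was 6.48 in young day 14 replicate 4 against 7.52, 6.19 in young day 35 replicate 4 against 7.19, and 6.77 in old day 21 replicate 3 against 7.50. The blood score of old day 14 replicate 3 was 9.38 against 3.10, and the skeletal muscle score of old day 42 replicate 1 was 1.38 against -0.51.

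The age difference after bleomycin differed from that after saline, by edgeR's test of the difference, for 18 genes of the panel or with the largest changes in each direction by the naming rule, which leaves out other genes called by that test. On the log2 scale the bleomycin value was higher by 0.64 for Col1a1, 0.62 for Col3a1, 0.66 for Cpxm1, 0.65 for Msc, 0.72 for Nrep, 0.75 for Ptprt, 0.78 for Veph1, 0.84 for Grp and 1.20 for Fbn2. The change was -0.57 for Trem2, -1.54 for Mmp12 and -1.36 for Cxcr1. Among antibody genes it was -1.54 for Jchain, -1.13 for Igkc, -2.57 for Ighg2b, -2.65 for Ighg1, -2.95 for Ighg3 and -4.22 for Ighg2c.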

How the results depend on the processing

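As each bleomycin lung was left out, the share of tested genes that were called over all 6 days ran from 44.7 to 48.6%, on day 14 from 8.21 to 33%, on day 21 from 0.266 to 1.08%, on day 28 from 10.8 to 22.5%, on day 35 from 0.136 to 3.96%, on day 42 from 2.68 to 10.8% and on day 56 from 7 to 11.9%. It ran from 0.0435 to 2.94% in the test over days. With saline replicate numbers left out, it ran from 52.2 to 57.3% after saline, and with either kind left out from 1.51 to 3.12% between treatments. These fits kept the gene set and the dispersion trend of all lungs. Without a filter on low counts 36251 genes were tested, so shares also fell in comparisons not listed here, where the number of genes called changed less. The share was then 0.323% on day 35, 1.81% on day 42, 1.78% in untreated lungs, 0.77% between treatments and 0.011% over days. Without 11 libraries numbered apart from their group it was 5.12% on day 28, 3.65% on day 42, 7.7% on day 56 and 0.0485% over days. Without the 5 lungs that stood apart it was 11.9% on day 14, 1.33% on day 21, 28.3% on day 28, 3.65% on day 35, 10.4% on day 42, 9.17% in untreated lungs and 0.842% over days. The test over days called 0.849% without the blood-rich lung and 1.21% by DESeq2. Fitting only the groups compared, 0.356% were called on day 35 and 0 genes over days (edgeR, with 1891 at an unadjusted p under 0.05), and 1060 bleomycin calls had no saline call. Genes called in opposite directions numbered 6 without the filter, 3 at an adjusted p under 0.01 and 50 under 0.1. The cause of these shifts was not tested. As each untreated lung was left out, the share called there ran from 1.77 to 5.57%. In that comparison values called lower or higher changed sign as a lung was left out for Arg1 (-4.56 to 0.0448), Mmp12 (-3.76 to 0.53), Krt15 (-4.54 to 0.448), Tnni2 (-1.8 to 0.0996) and Dapl1 (-0.108 to 2.69). In the other comparisons no named gene with a call had the opposite sign under an alternative run, while genes without a call near 0 did, such as, after bleomycin, Eln (-0.15 to 0.15), Scgb1a1 (-0.09 to 0.13), Krt8 (-0.03 to 0.08), Grp (-0.14 to 0.04) and Ighg2c (-0.06 to 1.23). No paired analysis was possible because no replicate number in the labels ties lungs of separate groups together. Groups of 4 to 6 lungs limit what single days can show.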
